A study of Mus musculus with 6 samples.

Results

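Transcripts of 10 genes induced by type I interferon were followed through single-cell libraries of mouse kidneys. The 10 genes, Isg15, Usp18, Ifit1, Ifit3, Rsad2, Oasl2, Zbp1, Irf7, Rtp4, and Ifi44, were chosen by symbol from 28208 genes shared by all matrices, and all 10 were measured in each kidney. Naive kidneys were untransplanted organs of male C57BL/6 (B6) mice aged 10 to 12 weeks (n = 2). Rejecting kidneys were BALB/c organs, labelled male and 6 to 7 weeks of age, placed in B6 males whose own kidneys had both been removed (n = 2). Tolerized kidneys came from the same transplant, but the recipients also received infusions of BALB/c splenocytes fixed with ethylenecarbodiimide (ECDI), before and after surgery (n = 2). All 4 transplanted kidneys were taken on day 15. Parenchymal cells of a graft are of donor strain, whereas leukocytes in it can come from donor or recipient. For cells of donor origin, strain, age, transplantation, and the gene list used for counting all differed between naive and transplanted kidneys and cannot be told apart. Leukocytes of recipient origin are B6 like the naive kidneys, and for them the strain does not differ. Rejecting and tolerized kidneys shared strain, age, and gene list. The labels number the replicates only, so p values measure the spread between these kidneys.

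Type I interferons bind a receptor of the subunits IFNAR1 and IFNAR2, whose kinases activate a transcription factor complex that holds STAT2 and IRF9. The complex binds the interferon-stimulated response element (ISRE) of target genes. Interferon-gamma, made mainly by T and NK cells, signals through its own receptor to another element (GAS) and induces an overlapping set of genes, so the 10 transcripts do not report on a single ligand. Their products restrict viruses, sense nucleic acids, or regulate the pathway itself. In the kidney, tubular epithelium, endothelium, and leukocytes all carry the receptor.

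The ISRE is spelled out in the promoters of several of the genes. RefSeq promoter sequence (GRCm38.p6, 250 bases before to 50 after the start of transcription) matched 7 of the 10 genes; Zbp1, Rtp4, and Usp18 had no entry. The ISRE core, GAAANNGAAA on either strand, was present in the promoters of Isg15, Ifit1, Ifit3, and Rsad2, which is 57.1% of the 7, and in 3.44% of all 32851 promoters of that length. It is not particular to these genes, being in 39.2% of the 74 promoters matched from a list of further interferon-stimulated genes and in 10 of the 20 from a list of interferon-gamma and its preferential targets. The 4 stretches below run from -160 to -51 relative to the start, 5′ to 3′ on the strand of the gene, and are shown because they hold every match found. Capitals mark the cores, with TTTCNNTTTC on the reverse strand, and the 3 cores of Isg15 overlap into 1 run. Isg15 is at chr4:156200869-156200978 (minus strand), Ifit1 at chr19:34640729-34640838 (plus), Ifit3 at chr19:34583369-34583478 (plus), and Rsad2 at chr12:26456503-26456612 (minus).
Isg15: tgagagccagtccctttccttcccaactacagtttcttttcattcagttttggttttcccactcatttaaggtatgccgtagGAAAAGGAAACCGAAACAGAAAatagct
Ifit1: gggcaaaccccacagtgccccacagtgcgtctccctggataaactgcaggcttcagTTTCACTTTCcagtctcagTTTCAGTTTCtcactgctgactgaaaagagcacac
Ifit3: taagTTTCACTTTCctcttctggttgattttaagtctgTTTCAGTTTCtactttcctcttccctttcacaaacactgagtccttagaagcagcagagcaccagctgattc
Rsad2: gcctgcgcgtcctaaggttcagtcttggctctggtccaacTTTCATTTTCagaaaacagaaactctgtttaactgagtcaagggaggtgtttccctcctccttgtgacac

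Ifit1 and Ifit3 each held 2 separate cores and Rsad2 held 1, all on the reverse strand. The promoters of Irf7, Oasl2, and Ifi44 held no such letters in this window. A GAS spelling, TTCNNNGAA, reads the same on both strands and does not overlap the core. It was in none of the 7 promoters, in 8.30% of all promoters, and in 45% of the 20 promoters of the interferon-gamma list. These matches describe letters only. In GRCm38 with GENCODE M21 the genes span chr4:156199424-156200818 (Isg15), chr6:121245906-121270917 (Usp18), chr19:34640871-34650009 (Ifit1), chr19:34583531-34588731 (Ifit3), chr12:26442746-26456452 (Rsad2), chr5:114896936-114912234 (Oasl2), chr2:173206612-173218923 (Zbp1), chr7:141262706-141266481 (Irf7), chr16:23520291-23614222 (Rtp4), and chr3:151730922-151749960 (Ifi44). Ifit3 has a near-identical neighbor, Ifit3b, and reads may have been divided between them, so its counts are uncertain.

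Each kidney gave 1 library of 34874702 to 96803926 unique molecular identifiers (UMIs) in 8532 to 13378 barcodes. Clusters were named from marker genes, with the interferon genes left out of the clustering, and grouped into tubular, endothelial, myeloid, and lymphoid cells. Naive kidneys gave 6161 and 5017 tubular cells, rejecting kidneys 2536 and 1631, and tolerized kidneys 4324 and 3643. Endothelial cells numbered 47 to 269 per kidney. Naive kidneys held few leukocytes, with 91 and 150 myeloid and 68 and 133 lymphoid cells, against 822 to 2463 myeloid and 1323 to 3981 lymphoid cells in the transplanted kidneys. Proximal tubule markers summed to 7637 to 11690 CPM in tubular cells and endothelium markers to 8494 to 13100 CPM in endothelial cells. Cells of unnamed clusters, 52 to 1405 per kidney, were left out. The 1405 were of the first rejecting kidney, and 1346 of them were in cluster 10, which held 132 cells of the second. In a coarser clustering (resolution 0.8) the first rejecting kidney had 3869 tubular cells in place of 2536. Libraries shared at most 1.195% of the barcodes of the smaller library. Levels are UMIs summed over the cells of 1 kidney and scaled to a total of 1000000 (CPM), and because each group has 2 kidneys, both values are given in place of a mean and SD.

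Summed over the 10 genes, the level in tubular cells was 12.3 and 23.6 CPM in naive, 456 and 529.5 CPM in rejecting, and 264.7 and 265.5 CPM in tolerized kidneys. Naive kidneys were the lowest by far, and tolerized kidneys lay between the others. In endothelial cells the sum was 1275 and 1191 CPM in naive, 2301 and 2272 CPM in rejecting, and 1997 and 1619 CPM in tolerized kidneys. Endothelial cells thus had the highest sum of the 4 kinds of cells in each of the 6 kidneys. The myeloid sum was 588 and 705 CPM in naive, 1149 and 1186 CPM in rejecting, and 858 and 809 CPM in tolerized kidneys. The lymphoid sum was 172 and 249 CPM in naive, 284 and 331 CPM in rejecting, and 231 and 266 CPM in tolerized kidneys. The naive and tolerized kidneys overlapped here. Of the 57 UMIs behind the second naive value, however, 13 came from 1 cell, so nothing is read from this overlap.

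Gene by gene, endothelial cells had the highest group mean for 6 of the 10 genes in naive kidneys and for 9 in both rejecting and tolerized kidneys, and myeloid cells had it for the rest. Tubular cells were lowest for 9 of 10 genes in naive kidneys. For Usp18, Rsad2, and Oasl2, however, naive tubular and lymphoid cells overlapped, and each gene had 1 UMI over both naive lymphoid sums. In rejecting kidneys lymphoid cells were lowest for 9 genes and in tolerized kidneys for 8. By group mean, tubular cells had thus moved from last place for most of the genes, with the naive place uncertain for Usp18, Rsad2, and Oasl2. For Isg15, endothelial, myeloid, and lymphoid cells stood in that order in naive kidneys without overlap between neighbors, and tubular cells came last. In rejecting kidneys tubular cells ranked above lymphoid cells for Isg15, but these neighbors overlapped. The share of a kidney's UMIs of the 10 genes that each kind of cell supplied differed between the groups too. Endothelial cells, 4.03% and 4.17% of the naive cells, held 56.4% and 53.1% of these UMIs, and myeloid cells held 60.8% and 67.5% in rejecting kidneys. In the first tolerized kidney myeloid cells held 52.0% and tubular cells 29.4%, whereas in the second tubular cells held 50.7% and myeloid cells 27.9%.

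**Figure D1:**
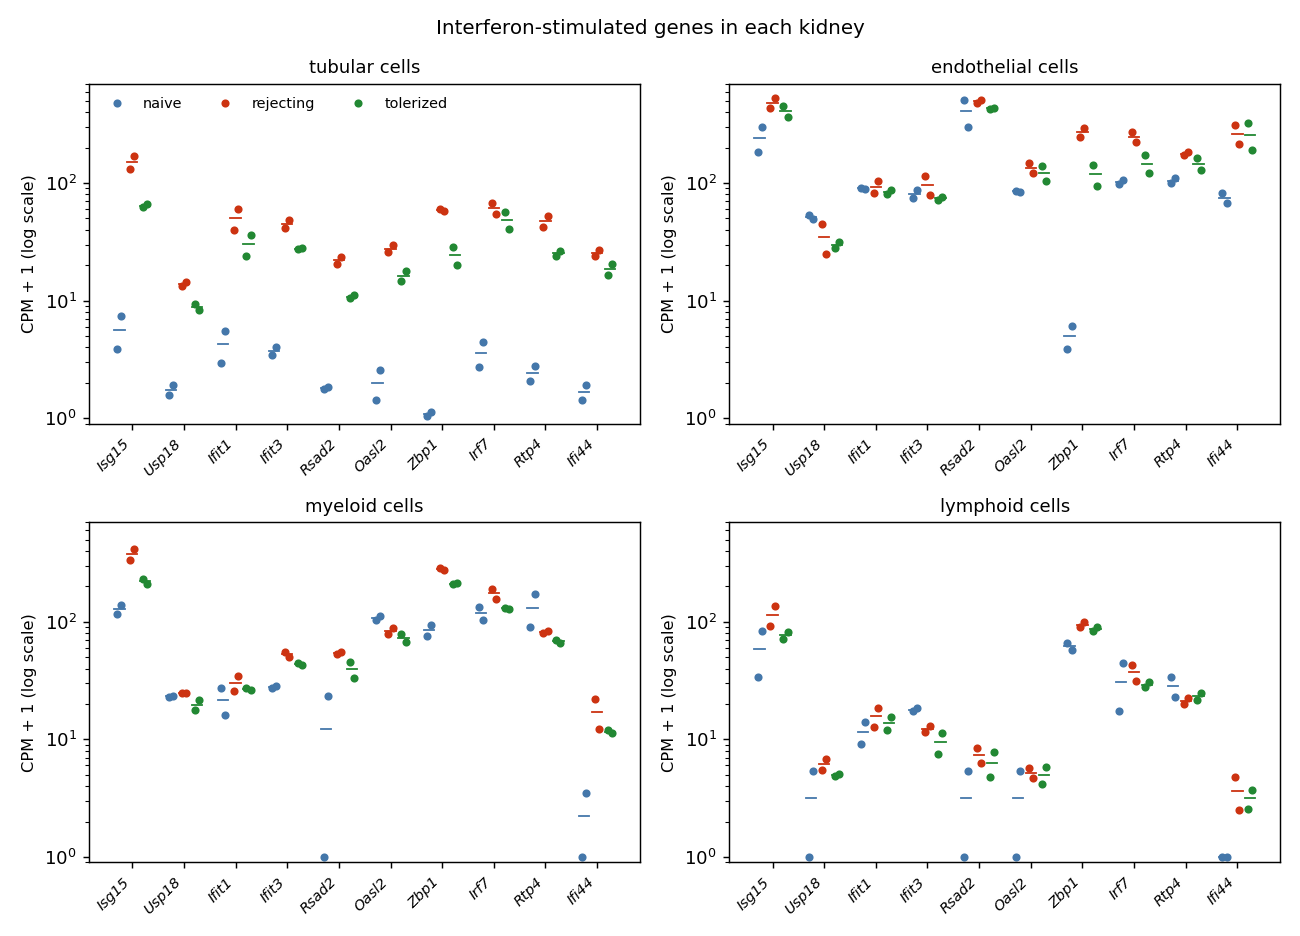
CPM + 1 on a log scale for each of the 10 genes, with 1 panel per kind of cell, 1 point per kidney, and a line at the group mean (n = 2). In tubular cells all naive points lie under all points of transplanted kidneys for every gene, whereas in lymphoid cells this holds for Zbp1 and Ifi44 only.

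All 10 genes rose in tubular cells of rejecting kidneys and of tolerized kidneys compared with naive kidneys. The test was edgeR's quasi-likelihood method at a false discovery rate (FDR) of 0.05, adjusted over 13824 genes. All 10 genes passed the filter on low counts, and the median log2 fold change of the 10 was 4.53 for rejecting and 3.80 for tolerized kidneys, against 0.03 over all genes in both comparisons. As background, 19.1% of all genes tested rose in rejecting kidneys and 13.3% rose in tolerized kidneys. Every transplanted kidney lay above both naive kidneys for 10 of the 10 genes, which was the case for 37.6% of all genes tested. The 2 comparisons share the naive kidneys. The median mitochondrial share over all cells was 25.5% and 24.9% in naive kidneys and 5.38% to 13.7% in transplanted kidneys, and its part in these results was not tested.

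Among the genes of the ISG15 system, Isg15 itself, a ubiquitin-like protein that is joined to other proteins, was at 2.87 and 6.46 CPM in tubular cells of naive, 130 and 170 CPM in rejecting, and 61.7 and 65.0 CPM in tolerized kidneys. Its log2 fold change was 4.81 ± 0.35 (SE) in rejecting kidneys (FDR = 5.85e-05) and 3.70 ± 0.34 in tolerized kidneys (FDR = 0.000215). The groups stood apart, with tolerized kidneys between the others. Usp18, the protease that removes ISG15 and also damps receptor signaling, was at 0.583 and 0.914 CPM in naive, 12.4 and 13.4 CPM in rejecting, and 8.30 and 7.29 CPM in tolerized kidneys. It rose by log2 3.90 in rejecting and 3.31 in tolerized kidneys, again without overlap among the 3 groups.

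The antiviral effectors followed the same order. Ifit1, which binds foreign RNA by its end, was at 1.95 and 4.57 CPM in tubular cells of naive, 39.2 and 59.2 CPM in rejecting, and 23.1 and 35.2 CPM in tolerized kidneys, with a log2 fold change of 3.72 and 3.10. Ifit3, its partner protein, was at 2.43 and 3.003 CPM in naive, 40.3 and 47.4 CPM in rejecting, and 26.4 and 27.1 CPM in tolerized kidneys. Both naive values of these genes lay far under every graft. Rsad2, which encodes the antiviral enzyme viperin, was at 0.778 and 0.849 CPM in naive, 19.5 and 22.6 CPM in rejecting, and 9.46 and 10.2 CPM in tolerized kidneys. Oasl2, of the oligoadenylate synthetase family, was at 0.438 and 1.57 CPM in naive, 24.8 and 28.5 CPM in rejecting, and 13.6 and 16.8 CPM in tolerized kidneys. For each of these 4 genes, both tolerized kidneys were under both rejecting kidneys.

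Zbp1 had the largest fitted fold change of the 10 genes. It encodes a sensor of nucleic acids in the Z form that can trigger necroptosis. In tubular cells it was at 0.0486 and 0.131 CPM in naive, 59.6 and 56.3 CPM in rejecting, and 27.5 and 19.3 CPM in tolerized kidneys. The naive values rest on 3 UMIs, against 1368 in the rejecting and 1865 in the tolerized kidneys. The ratio of the pooled levels was 696 for rejecting kidneys (95% exact interval 238 to 3380) and 277 for tolerized kidneys (94.6 to 1340), intervals that cover counting error only. The fitted log2 fold change was 9.13 ± 0.41 (FDR = 7.66e-06) and 7.95 ± 0.42 (FDR = 1.21e-05).

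Irf7, the factor that drives transcription of interferon genes, was at 1.70 and 3.46 CPM in tubular cells of naive, 66.2 and 53.7 CPM in rejecting, and 56.1 and 39.8 CPM in tolerized kidneys. It was the only one of the 10 genes whose rejecting and tolerized kidneys overlapped in tubular cells. Rtp4, an interferon-induced protein of the receptor transporter family, was at 1.07 and 1.76 CPM in naive, 40.9 and 51.8 CPM in rejecting, and 23.1 and 25.4 CPM in tolerized kidneys. Ifi44, an interferon-induced cytoplasmic protein, was at 0.438 and 0.914 CPM in naive, 23.0 and 26.2 CPM in rejecting, and 15.5 and 19.4 CPM in tolerized kidneys. Log2 fold changes against naive kidneys were 4.35 and 4.16 for Irf7, 4.83 and 4.03 for Rtp4, and 5.01 and 4.64 for Ifi44, in rejecting and tolerized kidneys in turn.

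Between tolerized and rejecting kidneys, the tubular levels of all 10 genes had negative log2 fold changes, and none passed the test. Under this test 0.0% of 13824 genes were called, 1328 had an unadjusted p under 0.05, and 6 of the 10 genes were among those. The log2 fold change ran from -0.19 for Irf7 to -1.18 ± 0.22 for Zbp1 (FDR = 0.201), with a median of -0.65. Isg15 was at -1.11 ± 0.29 (FDR = 0.248), Rsad2 at -0.97 ± 0.19 (FDR = 0.201), Rtp4 at -0.80 ± 0.21 (FDR = 0.241), and Ifit3 at -0.58 ± 0.17 (FDR = 0.272). Both tolerized kidneys were under both rejecting kidneys for 9 of the 10 genes, a pattern that 29.1% of all genes tested showed in tubular cells. DESeq2 on the same sums called 257 genes, among them 4 of the 10, all lower in tolerized kidneys.

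Tubular cells of the transplanted kidneys also carried some leukocyte RNA. The 10 macrophage markers summed to 18.8 and 27.8 CPM in tubular cells of naive, 293 and 106 CPM in rejecting, and 67.1 and 30.5 CPM in tolerized kidneys, which was 0.216% to 1.73% of their level in myeloid cells of the same kidney. If that share of the myeloid level of the 10 genes had been carried along, it would come to 19.8 and 6.94 CPM in rejecting and 3.41 and 2.05 CPM in tolerized kidneys. That is 4.35% and 1.31% of the measured sum of rejecting kidneys and 1.29% and 0.771% of that of tolerized kidneys. For naive kidneys it would come to 1.70 and 1.52 CPM, which is 13.8% and 6.45% of the measured sum. The 11 T cell markers summed to 4.04 and 3.46 CPM in naive, 191 and 69.9 CPM in rejecting, and 26.7 and 21.9 CPM in tolerized kidneys. The same reckoning with lymphoid cells gave 0.730 to 6.16 CPM of the 10 genes in the transplanted kidneys. Of the macrophage markers 1 was at 0 in the first naive kidney and none in the rest, and of the T cell markers 2 were at 0 in each naive kidney and none in the transplanted ones.

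Tubular cells fell into 5 named classes, whose sums are given without a test. In proximal tubule-like cells the 10 genes summed to 7.22 and 9.67 CPM in naive, 355 and 311 CPM in rejecting, and 217 and 208 CPM in tolerized kidneys. In loop of Henle-like cells the sum was 39.1 and 31.5 CPM in naive, 664 and 707 CPM in rejecting, and 419.5 and 404.6 CPM in tolerized kidneys. In both classes the 3 groups stood apart in the same order. Distal convoluted tubule-like cells had 17.8 and 23.9 CPM in naive, 614 and 932 CPM in rejecting, and 381 and 252.5 CPM in tolerized kidneys. Intercalated cell-like cells had 30.3 and 4.88 CPM in naive, 708 and 529 CPM in rejecting, and 195 and 319 CPM in tolerized kidneys, from 36 to 100 cells each. These distal classes kept the order of the groups too, with a wider spread within groups. Naive proximal tubule-like cells fell mostly into clusters 0, 3, 13, and 15 and those of transplanted kidneys into clusters 7, 8, 11, 17, and 21, so these values compare a class held by different clusters.

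Principal cell-like cells of the collecting duct had the highest sum of the tubular classes in both rejecting kidneys, at 1449 and 1129 CPM, against 32.5 and 125 CPM in naive and 574 and 442 CPM in tolerized kidneys. That rank rested on cluster 23, at 1696 and 1367 CPM in rejecting kidneys, since cluster 26 of the same class was at 264.6 and 749.8 CPM, from 10 and 29 cells. Isg15 in these cells was at 8.42 and 34.6 CPM in naive, 487 and 429.8 CPM in rejecting, and 149 and 125 CPM in tolerized kidneys. In proximal tubule-like cells Isg15 was at 1.30 and 1.99 CPM in naive, 77.4 and 73.1 CPM in rejecting, and 41.7 and 37.3 CPM in tolerized kidneys, below the principal cell-like cells of every kidney. Zbp1 differed less between these classes, at 81.6 and 81.1 CPM in rejecting principal cell-like cells and 56.2 and 50.6 CPM in rejecting proximal tubule-like cells.

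**Figure D2:**
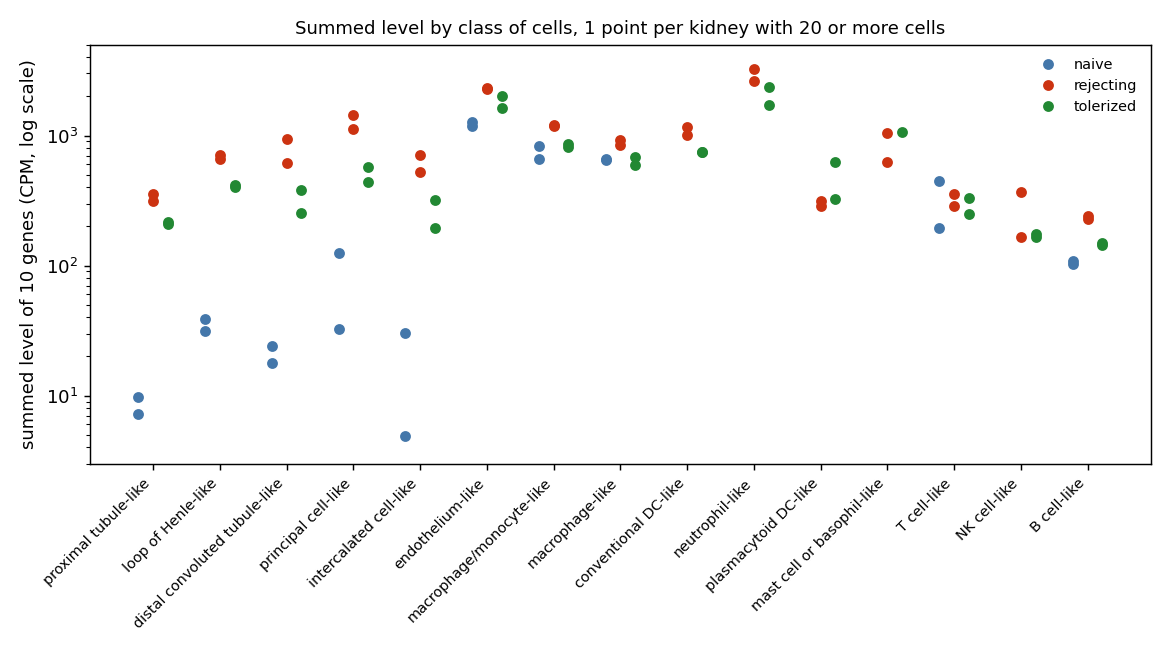
Summed CPM of the 10 genes (log scale) in each class of cells, with 1 point for each kidney that had 20 or more cells of the class. The 5 tubular classes show naive points at or under 125 CPM and every transplanted kidney at 195 CPM or more, whereas T cell-like points of all groups overlap.

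Counted per cell, few tubular cells of naive kidneys held any UMI of the 10 genes. Depth differed between kidneys, so each cell was thinned to 1000 UMIs and shallower cells were left out. After thinning, 0.75% and 1.56% of the tubular cells of naive kidneys held at least 1 such UMI, compared with 26.7% and 29.2% of those of rejecting kidneys and 19.3% and 17.4% of those of tolerized kidneys. The thinning left out 116 to 469 tubular cells per kidney. Without thinning the naive shares were 2.27% and 3.69%, the rejecting shares 57.2% and 58.6%, and the tolerized shares 58.5% and 59.98%. Tubular cells of tolerized kidneys were the deepest, with medians of 5919.5 and 9043 UMIs, against 3342 and 3729 UMIs for rejecting and 2814 and 2618 UMIs for naive kidneys. The order of rejecting and tolerized kidneys in the unthinned shares went against the CPM and is not read as a difference. For comparison, macrophage marker UMIs occurred in 29.1% and 10.2% of the thinned tubular cells of rejecting kidneys and in 7.29% and 4.37% of those of tolerized kidneys. Tubular RNA was also found in other cells, since proximal tubule markers gave a UMI in 66.2% and 87.1% of the thinned lymphoid cells of naive kidneys. Whether it came from RNA outside cells or from doublets was not tested. In naive tubular cells the macrophage marker share, 1.54% and 2.66%, was above that of the 10 genes. How much of the naive share of the 10 genes came from RNA outside the cells was not tested. In the first rejecting kidney the share with macrophage markers was thus as high as that with the 10 genes, and it was lower in the other 3 transplanted kidneys.

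Most tubular cells with such UMIs held 1 per 1000. Cells with 5 to 9 such UMIs made up 0.82% and 1.08% of tubular cells in rejecting and 0.24% and 0.23% in tolerized kidneys, and the tenth of cells with most such UMIs held 60.1% to 69.9% of them in the transplanted kidneys. Among endothelial cells, at least 1 such UMI was present in 52.2% and 50.4% of those of naive kidneys, 79.8% and 77.3% of those of rejecting kidneys, and 75.5% and 64.2% of those of tolerized kidneys. Among myeloid cells, naive kidneys had 36.3% and 36.7%, rejecting kidneys 55.0% and 56.1%, and tolerized kidneys 45.9% and 44.8%. The 3 groups did not overlap in tubular, endothelial, or myeloid cells, and in lymphoid cells the shares ran from 15.2% to 24.2%, with 1839 cells of the first rejecting kidney too shallow to count.

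**Figure D3:**
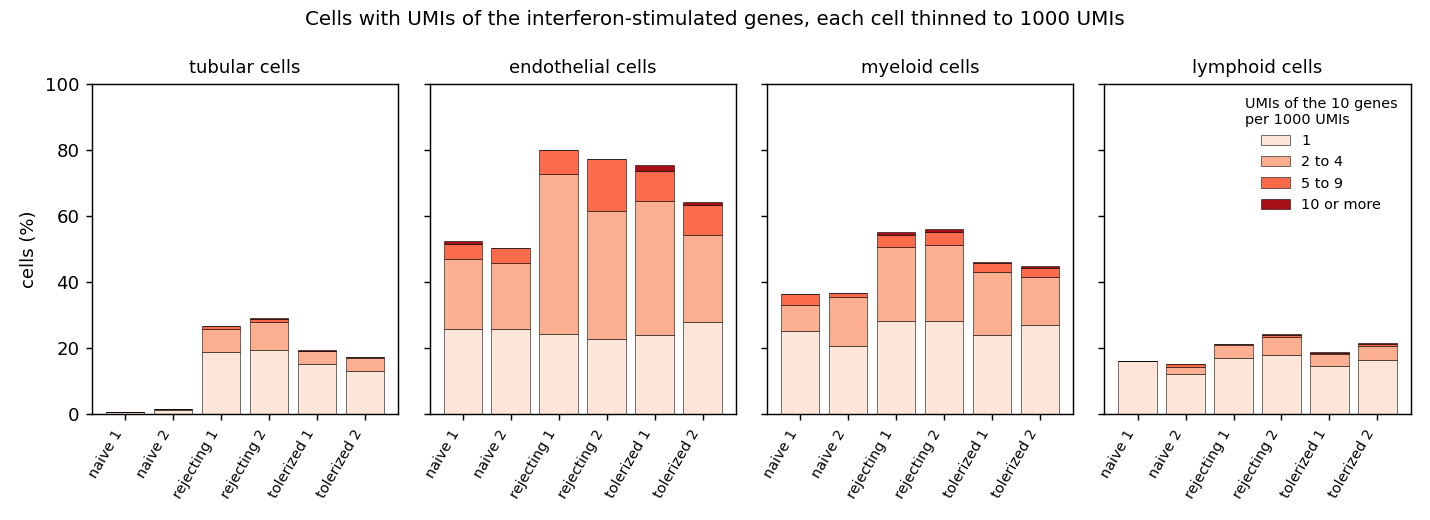
Share of cells (%) in each kidney with 1, 2 to 4, 5 to 9, or 10 or more UMIs of the 10 genes after each cell was thinned to 1000 UMIs, with 1 panel per kind of cell and 1 bar per kidney. Tubular bars of naive kidneys reach 0.75% and 1.56%, and those of transplanted kidneys 17.4% to 29.2%.

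In endothelial cells several of the genes were already high in naive kidneys and were not called against them in either group. Rsad2 was at 509 and 301 CPM in naive, 477 and 510 CPM in rejecting, and 428 and 431 CPM in tolerized kidneys. Ifit1 was at 90.4 and 88.3 CPM in naive, 81.2 and 102 CPM in rejecting, and 80.3 and 87.1 CPM in tolerized kidneys. Neither was called, and the naive kidneys overlapped the rejecting ones for both. Usp18 was at 52.5 and 48.7 CPM in naive, 44.2 and 24.02 CPM in rejecting, and 27.2 and 30.3 CPM in tolerized kidneys, with log2 fold changes of -0.50 ± 0.35 and -0.80 ± 0.32 that were not called. Both naive kidneys were above every transplanted kidney for Usp18. Ifit3, at 70.4 to 114 CPM, also overlapped between naive and transplanted kidneys.

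In endothelial cells of rejecting kidneys 4 of the 10 genes rose, against 7.99% of the 8544 genes tested. In tolerized kidneys 2 rose, against 6.16%. Of the naive cells, 160 of 269 and 142 of 234 were in cluster 30, which held 1 cell of the transplanted kidneys. The sum there was 986 and 1008 CPM. In cluster 19, shared by all groups, it was 1513 and 1322 CPM in naive, 2301 and 2272 CPM in rejecting, and 1997 and 1621 CPM in tolerized kidneys. These tests thus compare different mixes of endothelial cells. Tubular RNA was also found in a larger share of naive than of graft endothelial cells, and its part in these changes was not tested. Zbp1 was at 2.92 and 5.12 CPM in naive, 247 and 294 CPM in rejecting, and 143 and 93.9 CPM in tolerized kidneys, with log2 fold changes of 5.99 ± 0.42 (FDR = 8.88e-05) and 4.81 ± 0.42 (FDR = 0.000206). Ifi44 was at 81.7 and 66.6 CPM in naive, 309 and 213 CPM in rejecting, and 326 and 189 CPM in tolerized kidneys, with 1.82 ± 0.32 (FDR = 0.00638) and 1.80 ± 0.32 (FDR = 0.00712). For Ifi44 the rejecting and tolerized kidneys overlapped. Irf7 rose in rejecting kidneys, from 97.7 and 105 CPM to 272 and 222 CPM, by 1.28 ± 0.26 (FDR = 0.0107), and stood at 171 and 120 CPM in tolerized kidneys (FDR = 0.2). Isg15 rose in rejecting kidneys, from 184 and 298 CPM to 437 and 525 CPM, by 0.98 ± 0.29 (FDR = 0.0428), and stood at 452 and 361 CPM in tolerized kidneys (FDR = 0.104).

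Rtp4 and Oasl2 also had every transplanted kidney above both naive kidneys in endothelial cells, which makes 6 of the 10 genes, against 22.0% of all genes. The count of 4 in rejecting kidneys fell to 2 without the first naive kidney, to 1 without the second naive kidney, and to 2 without the first rejecting kidney, and the count of 2 in tolerized kidneys fell to 1 without either naive kidney. Between tolerized and rejecting kidneys no gene of the 10 was called, where 0.0% of 8544 genes were called, 549 had an unadjusted p under 0.05, and DESeq2 called 15 genes and none of the 10. Zbp1 had a log2 fold change of -1.17 ± 0.27 (FDR = 0.417) and Irf7 of -0.76 ± 0.25 (FDR = 0.588). Tolerized kidneys were under both rejecting kidneys for 5 of 10 genes, against 17.2% of all genes. The T cell markers in endothelial cells summed to 0 and 2.56 CPM in naive, 235 and 213 CPM in rejecting, and 19.3 and 22.7 CPM in tolerized kidneys, with 11, 9, 1, 2, 2, and 1 of the 11 markers at 0 in these kidneys, and the macrophage markers to 56.9 and 79.4, 285 and 69.0, and 87.0 and 60.6 CPM. By the reckoning used for tubular cells, macrophage RNA would carry 5.16 and 4.35 CPM of the 10 genes in naive kidneys. In rejecting kidneys it would carry 19.27 and 4.505 CPM, which is 0.838% and 0.198% of the measured sum. In tolerized kidneys it would carry 4.41 and 4.06 CPM. T cell RNA would carry 7.567 and 7.455 CPM in rejecting kidneys, which is 0.329% and 0.328%, and less in the rest. The part of leukocyte RNA in the results of single genes was not tested.

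Myeloid cells of naive kidneys, of which there were few, already carried 8 of the 10 transcripts at 15 CPM or more. The median log2 fold change of all genes was 0.18 in rejecting and 0.17 in tolerized kidneys here, and changes are read against it. Tubular RNA was also found in a larger share of naive than of graft myeloid cells, and its part in these changes was not tested. In rejecting kidneys 3 of the 10 genes rose, against 7.12% of the 12242 genes tested. Zbp1 was at 75.2 and 92.5 CPM in naive, 287 and 276 CPM in rejecting, and 209 and 212 CPM in tolerized kidneys, and rose by 1.80 ± 0.23 (FDR = 0.00231) and 1.43 ± 0.23 (FDR = 0.0103). Isg15 was at 115 and 137.5 CPM in naive, 337 and 411 CPM in rejecting, and 230 and 208 CPM in tolerized kidneys, and rose by 1.63 ± 0.24 (FDR = 0.00356) in rejecting kidneys, with 0.91 ± 0.24 (FDR = 0.0534) in tolerized kidneys. For both genes the 3 groups stood apart. Ifit3 rose from 26.5 and 27.5 CPM to 54.6 and 49.4 CPM in rejecting kidneys, by 1.01 ± 0.28 (FDR = 0.0453), and was at 43.3 and 41.7 CPM in tolerized kidneys. In tolerized kidneys Zbp1 was the only one of the 10 called, against 3.97% of genes, and it was not called without the first or without the second naive kidney.

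The other myeloid genes did not move together. Oasl2 was at 102 and 110 CPM in naive, 78.1 and 88.0 CPM in rejecting, and 77.6 and 66.0 CPM in tolerized kidneys, and was not called. Rtp4 was at 88.5 and 173 CPM in naive, 79.6 and 82.6 CPM in rejecting, and 69.5 and 64.7 CPM in tolerized kidneys, with log2 fold changes of -0.67 ± 0.30 and -0.90 ± 0.30 that were not called. For both genes the naive kidneys were the highest. Irf7 was at 133 and 103 CPM in naive, 190 and 157 CPM in rejecting, and 130 and 128 CPM in tolerized kidneys, and Usp18 and Ifit1 lay between 15 and 33.4 CPM in all kidneys. Rsad2 and Ifi44 rested on 9 and 1 UMIs over both naive kidneys. Rsad2 was at 52.6 and 54.3 CPM in rejecting and 44.7 and 32.3 CPM in tolerized kidneys, and Ifi44 at 21.2 and 11.2 CPM in rejecting and 11.01 and 10.3 CPM in tolerized kidneys. The ratio of the pooled Ifi44 levels was 10.0 in rejecting (95% exact counting interval 1.79 to 396) and 6.78 in tolerized kidneys (1.21 to 268). Every transplanted kidney was above both naive kidneys for 5 of the 10 genes, against 30.1% of all genes.

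Between tolerized and rejecting kidneys, 9 of the 10 genes had both tolerized kidneys under both rejecting kidneys in myeloid cells, a pattern shown by 23.4% of all genes, and Ifit1 was the exception. None of the 10 passed the test, which called 0.00811% of 12323 genes, while 818 had an unadjusted p under 0.05 and DESeq2 called 66 genes and none of the 10. Isg15 had the largest difference, with a log2 fold change of -0.72 ± 0.18 (FDR = 0.706). Zbp1 was at -0.37 ± 0.16 (FDR = 0.747) and Irf7 at -0.37 ± 0.17 (FDR = 0.771).

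Myeloid classes differed in level. Neutrophil-like cells, found in transplanted kidneys with 35 to 43 cells each, had a sum of 3219 and 2642 CPM in rejecting and 1719 and 2360 CPM in tolerized kidneys, the highest of any named class in 3 of these 4 kidneys and below endothelium-like cells in the first tolerized kidney. Isg15 alone was at 1542 and 1035 CPM in rejecting and 659 and 721.5 CPM in tolerized neutrophil-like cells. Conventional dendritic cell-like cells had 1013 and 1167 CPM in rejecting and 743 and 742 CPM in tolerized kidneys, again with the tolerized kidneys lower. Macrophage/monocyte-like cells, the largest myeloid class, had 659 and 824 CPM in naive, 1176 and 1197 CPM in rejecting, and 865 and 821 CPM in tolerized kidneys. Most naive cells of this class were in clusters 9 and 14, whereas cluster 2, with 3 naive cells, held 942, 1066, 826, and 216 of those of the transplanted kidneys. Within cluster 9 the sum was 789 and 908 CPM in naive, 1830 and 1739 CPM in rejecting, and 1233 and 1216 CPM in tolerized kidneys, so there the tolerized kidneys stood clear of the naive ones. A second macrophage-like class had 661 and 645 CPM in naive, 928 and 848 CPM in rejecting, and 598 and 682 CPM in tolerized kidneys. Its naive cells were nearly all in cluster 39 and those of the transplanted kidneys in cluster 22, of which 31.5% of barcodes were called doublets and left out, so no order is read from it. Plasmacytoid dendritic cell-like cells, a type known for its capacity to make type I interferon, had 287 and 312 CPM in rejecting and 631 and 327 CPM in tolerized kidneys, from 22 to 47 cells each.

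In lymphoid cells none of the 10 genes was called in any comparison, and the median log2 fold change of all genes was 0.29 in rejecting and 0.28 in tolerized kidneys. In rejecting kidneys none had an unadjusted p under 0.05 against naive kidneys, while 7.11% of the 12017 genes tested rose, and 2.75% rose in tolerized kidneys. DESeq2 called 0 of the 10 as well in both, where it called 1650 and 834 genes in all, 42.0% and 41.6% of them higher. Isg15 was at 32.7 and 83.0 CPM in naive, 90.6 and 135 CPM in rejecting, and 70.9 and 80.3 CPM in tolerized kidneys, so tolerized kidneys lay within the naive range. In the second naive kidney 1 cell held 13 of the 57 UMIs of the 10 genes, so nothing is read from this range. Zbp1 was at 65.4 and 56.8 CPM in naive, 89.3 and 97.7 CPM in rejecting, and 83.0 and 89.0 CPM in tolerized kidneys, with a log2 fold change of 0.67 ± 0.33 (FDR = 0.212) and 0.72 ± 0.33 (FDR = 0.240). Ifi44 had no UMI in either naive kidney and 1.504 to 3.76 CPM in transplanted kidneys, which is under the level that 3 UMIs would give in the naive sums. Zbp1 and Ifi44 were the 2 genes with every transplanted kidney above both naive kidneys, against 31.8% of all genes. The naive values rest on 122324 and 228969 UMIs, which limits what could be detected. The mix of cells differed as well, since B cell-like cells were 28 of 68 and 78 of 133 naive lymphoid cells but 402 of 3981, 523 of 3211, 409 of 2208, and 285 of 1323 in the transplanted kidneys. In T cell-like cells alone 0 of the 10 genes were called against naive kidneys, and the share of all genes called there is not given here.

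Tolerized and rejecting lymphoid cells differed by a log2 fold change of -0.42 to 0.31 in the 10 genes. The test called 0.0% of 11976 genes, 975 had an unadjusted p under 0.05 with 0 of the 10 among them, and DESeq2 called 59 genes and none of the 10. For 5 genes both tolerized kidneys were under both rejecting kidneys, against 31.7% of all genes. By class, B cell-like cells had a sum of 103 and 109 CPM in naive, 239 and 228 CPM in rejecting, and 149.6 and 145 CPM in tolerized kidneys, with no overlap. T cell-like cells, at 194 and 447 CPM in naive, 287 and 358 CPM in rejecting, and 249 and 329 CPM in tolerized kidneys, overlapped throughout. Naive T cell-like cells were mostly of cluster 18 (30 of 33 and 33 of 41), unlike those of the transplanted kidneys, and 13 of the 38 UMIs behind the second naive value came from 1 cell.

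**Figure D4:**
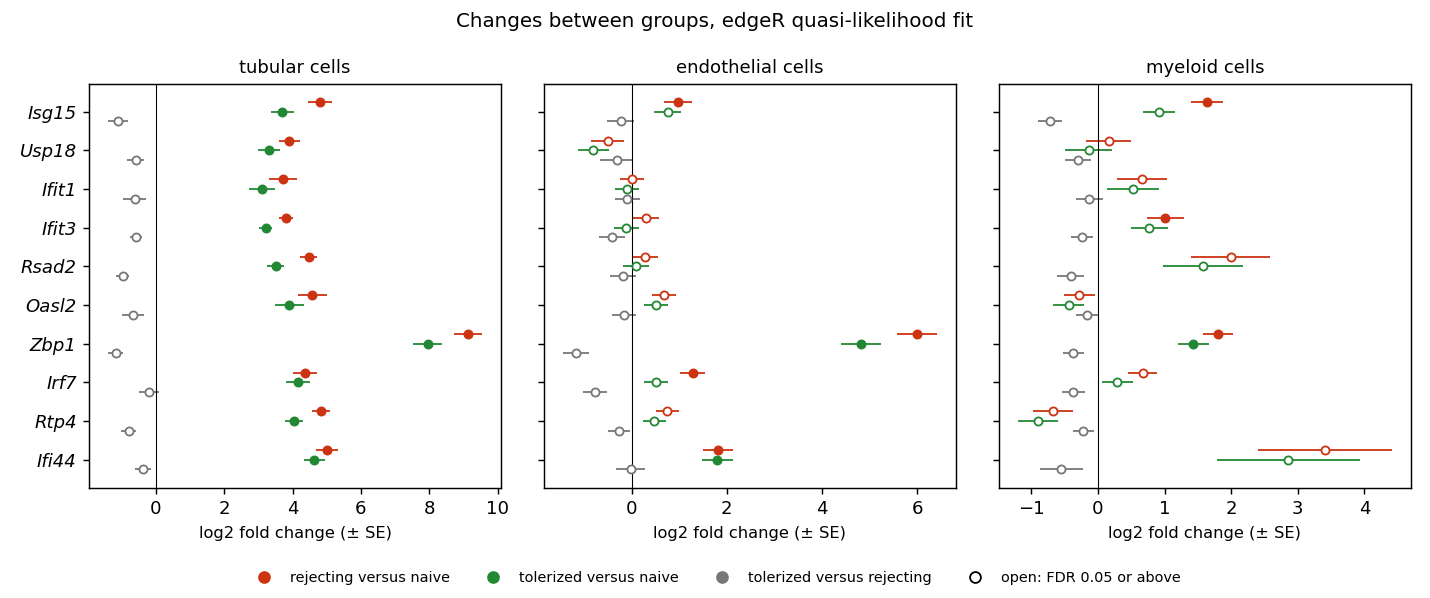
Log2 fold change ± SE from edgeR's quasi-likelihood fit for each of the 10 genes, with 1 panel each for tubular, endothelial, and myeloid cells. Lymphoid cells are not drawn. Filled points have an FDR under 0.05; all 20 points against naive kidneys are filled in tubular cells, 6 in endothelial cells, and 4 in myeloid cells, and no point of tolerized against rejecting kidneys is filled.

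Whether the rise was larger in tubular cells than elsewhere was tested directly, with an edgeR fit over 12 sums that kept the kidney as a block and compared the change between kinds of cells. Against endothelial cells, the rise in rejecting kidneys on the log2 scale was larger in tubular cells for 10 of the 10 genes, with 4.77% of all genes showing this, and in tolerized kidneys for 9, with 3.17% of all genes. The difference for Isg15 was a log2 of 4.02 ± 0.31 in rejecting (FDR = 4.74e-08) and 3.0 ± 0.31 in tolerized kidneys (FDR = 1.74e-06). Zbp1 in tolerized kidneys was the exception, at 2.96 ± 0.88 (FDR = 0.0619). Against myeloid cells, 8 genes rose more in tubular cells of rejecting kidneys and 7 in tolerized kidneys, where 4.42% and 1.09% of all genes did. Ifi44 and Rsad2 were not called in either, nor was Ifit1 in tolerized kidneys. Against lymphoid cells, 5 genes rose more in tubular cells in each comparison, where 4.18% and 1.04% of all genes did; the 5 were Isg15, Ifit3, Irf7, Rtp4, and Zbp1 both times, and 4 of the rest had 0 or 1 UMI over both naive lymphoid sums. None of the 10 was called in the other direction. This order holds on the log2 scale, since the mean sum of the 10 genes in CPM went from 1233 in naive to 2286 in rejecting kidneys in endothelial cells and from 17.96 to 492.8 in tubular cells. Tubular cells of grafts are of donor strain, whereas leukocytes of recipient origin are B6 like the naive kidneys. In the comparisons with myeloid and lymphoid cells, strain thus cannot be told apart from the kind of cell.

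The wider pathway was read from fixed lists. Type I and III interferon genes, the ligands, were hardly detected, as none of the 20 passed the filter in any kind of cell and their sum did not exceed 0.411 CPM in any kidney. Small sums could miss a low level, such as the 122324 UMIs of lymphoid and 226041 of myeloid cells in the first naive kidney. The endothelial sum of the second rejecting kidney, 333120 UMIs, was small too. Ifnb1, which encodes interferon-beta, had 4 UMIs in tubular cells of the second rejecting kidney, 2 in myeloid cells of the first tolerized kidney, and 0 elsewhere. Ifng, which encodes interferon-gamma, was at 24.5 and 34.9 CPM in lymphoid cells of naive, 383 and 211 CPM in rejecting, and 242 and 164.5 CPM in tolerized kidneys. It rose there in rejecting (log2 3.26 ± 0.44, FDR = 0.00175) and tolerized kidneys (2.90 ± 0.44, FDR = 0.00841). The naive values of Ifng rest on small sums of 122324 and 228969 UMIs. B cell-like cells were 28 of 68 and 78 of 133 naive lymphoid cells, a larger part than in the transplanted kidneys. The part of this mix in the rise was not tested.

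Of the 9 receptor and signaling genes, 7 rose in tubular cells of rejecting and 6 in tolerized kidneys, against 19.1% and 13.3% of all genes. Stat2, a subunit of the complex that binds the ISRE, was at 4.62 and 4.05 CPM in tubular cells of naive, 51.0 and 41.5 CPM in rejecting, and 29.1 and 29.9 CPM in tolerized kidneys. Irf9, another subunit of that complex, rose from 8.85 and 10.8 CPM to 35.8 and 43.8 CPM and to 25.8 and 27.0 CPM. Of the receptor subunits, Ifnar2 rose from 12.6 and 13.3 CPM to 38.3 and 44.1 CPM in rejecting and 23.9 and 28.4 CPM in tolerized kidneys, and Ifnar1 from 14.8 and 12.8 CPM to 24.5 and 29.4 CPM in rejecting kidneys (log2 0.74 ± 0.23, FDR = 0.0376). In endothelial cells 4 of these 9 genes rose in each comparison. In rejecting and tolerized kidneys in turn, 3 and 2 rose in myeloid cells and 4 and 1 in lymphoid cells. Of all genes tested, 7.99% and 6.16% rose in endothelial, 7.12% and 3.97% in myeloid, and 7.11% and 2.75% in lymphoid cells. Among 14 sensors and adaptors tested in tubular cells, 9 rose in rejecting kidneys, and 7 rose and 1 fell in tolerized kidneys. Ifih1, an RNA sensor, went from 5.01 and 5.81 CPM to 37.2 and 48.0 CPM in rejecting and 28.5 and 34.5 CPM in tolerized kidneys. Of the sensors tested in other cells, 1 of 9 rose in endothelial cells in each comparison, against 7.99% and 6.16% of all genes, and 5 and 2 of 16 in myeloid cells, against 7.12% and 3.97%. In lymphoid cells none of 14 rose and 1 fell each time. The difference between kinds of cells was not tested for these lists.

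Of 63 further interferon-stimulated genes tested in tubular cells, 54 rose in rejecting and 44 in tolerized kidneys, and none fell, with a median log2 fold change of 3.27 and 2.27. Of 22 tested genes on the list of interferon-gamma and its preferential targets, 21 and 20 rose, with a median of 6.83 and 6.13, or 6.27 and 5.64 when Ifng, without a UMI in naive tubular cells, was set to the bound that 3 UMIs over both kidneys would give. Carried leukocyte RNA was not taken out of these counts, which include Ifng and Cxcl9. In tubular cells of rejecting kidneys Ifng was at 7.48 and 2.67 CPM, where T cell markers were at 2.17% and 0.740% of their lymphoid level. Cxcl9 was at 65.4 and 21.7 CPM there, where macrophage markers were at 1.73% and 0.585% of their myeloid level. In these kidneys Ifng was at 383 and 211 CPM in lymphoid cells and Cxcl9 at 3736 and 2850 CPM in myeloid cells. How much of either transcript came from leukocytes was not tested, so neither is read as a rise of tubular cells themselves. Ciita, the activator of MHC class II genes, was at 0.389 and 0.392 CPM in naive, 107 and 69.6 CPM in rejecting, and 64.1 and 47.3 CPM in tolerized kidneys. Gbp4, an interferon-inducible GTPase, was at 0.340 and 0.0653 CPM in naive, 231 and 269 CPM in rejecting, and 139.5 and 176 CPM in tolerized kidneys. Of these targets, 19 of 22 rose in endothelial cells in each comparison, as did 16 and 13 of 23 in myeloid cells and 11 and 7 of 22 in lymphoid cells. Of further interferon-stimulated genes, 24 and 20 of 52 rose in endothelial and 17 and 11 of 65 in myeloid cells. In lymphoid cells 12 and 5 of 63 rose, and 1 or 2 fell in each of these kinds of cells. Of all genes tested, 19.1% and 13.3% rose in tubular and 7.99% and 6.16% in endothelial cells. In myeloid cells 7.12% and 3.97% rose, and in lymphoid cells 7.11% and 2.75%. Cxcl9, a chemokine induced by interferon-gamma, was at 3736 and 2850 CPM in myeloid cells of rejecting and 2309 and 2282 CPM in tolerized kidneys, against 4.42 and 107.5 CPM in naive kidneys.

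No gene of any list was called between tolerized and rejecting kidneys in any kind of cell. In tubular cells 59 of the 63 further interferon-stimulated genes and 22 of the 22 interferon-gamma genes had negative log2 fold changes, with medians of -0.58 and -0.55, close to the -0.65 of the 10 genes.

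**Figure D5:**
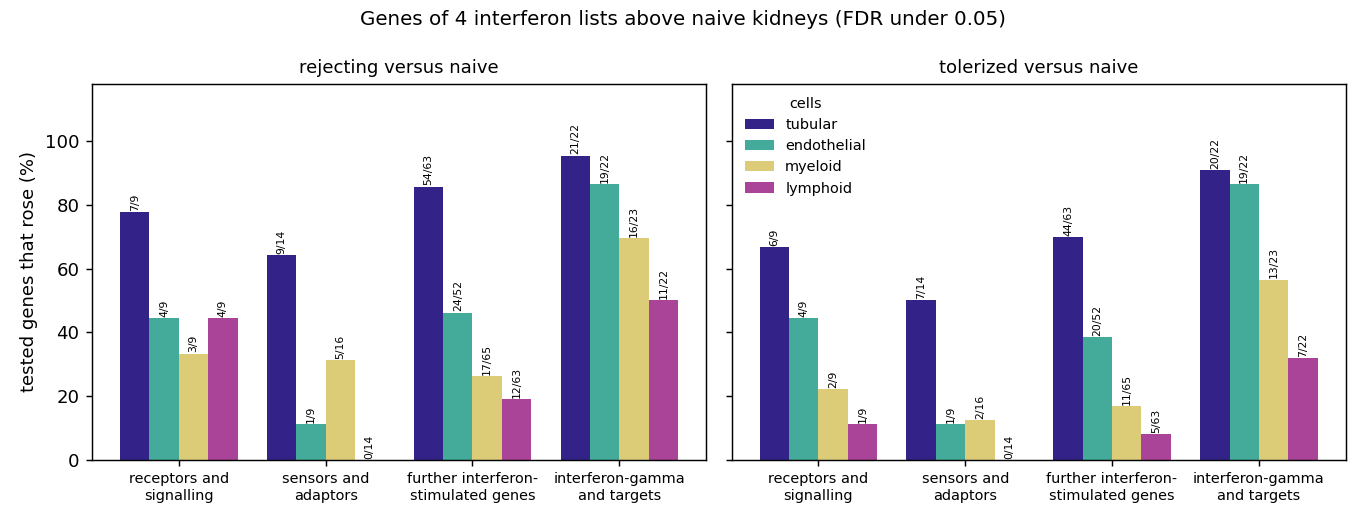
Share (%) of the tested genes of 4 interferon lists that rose against naive kidneys at an FDR under 0.05, for rejecting and tolerized kidneys, with 1 bar per kind of cell and the count of genes above it. Tubular bars are the tallest in all 4 lists, and the interferon-gamma list has the tallest bar of each kind of cell.

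Across the 24 sums, 4 kinds of cells in 6 kidneys, most of the 10 genes followed one another. Pearson's r of each gene with the mean log2 CPM of the other 9 was 0.948 for Ifit3, 0.932 for Isg15, 0.931 for Irf7, and 0.444 for Zbp1, the lowest. The genes outside the 10 whose pattern was most like their mean, of 9154 compared, were Rras (r = 0.948), Ube2l6 (r = 0.939), Mlkl (r = 0.929), Xaf1 (r = 0.923), and Bst2 (r = 0.916), followed by Phc2, Vcam1, Uba7, Ifitm3, and Tnfrsf1a down to r = 0.904. Ube2l6 and Uba7 encode enzymes that attach ISG15 to proteins, and Ube2l6, Xaf1, Bst2, Uba7, and Ifitm3 are on the list of further interferon-stimulated genes. The 24 sums share 6 libraries and differ in depth, and these correlations are given as a description.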

How the data were processed

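Single-cell libraries of 6 kidneys were analyzed as deposited: the authors provided 1 matrix per kidney of raw UMI counts per gene and barcode, made with Cell Ranger on mm10 per the labels, without normalization. The matrices of transplanted kidneys name a Cell Ranger version and those of naive kidneys none, with another gene list. Naive cells had at least 1342 UMIs after filtering.

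Barcodes were dropped if they had under 500 UMIs, under 250 genes, or over 50% mitochondrial UMIs. Scrublet's own threshold marked 0 to 280 barcodes per kidney and was replaced by the highest scores, 0.8% per 1000 barcodes. Clustering (scanpy 1.11.5, leidenalg 0.10.2) used 2500 variable genes without the 143 interferon genes, 40 components, and a resolution of 1.5, and clusters were named by at least 3 markers. UMIs were summed per kidney and kind of cell, and genes of low count were removed by filterByExpr. TMM factors scaled the sums, and edgeR 4.0.16 gave quasi-likelihood tests, called at an FDR of 0.05. All 6 kidneys were fitted together, except that tolerized and rejecting kidneys were fitted alone for myeloid and lymphoid cells. CPM are not TMM-adjusted. An SE is the log2 fold change divided by the root of the F statistic.

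The tests were checked on simulated data. DESeq2 1.42.0 and the other settings in the closing section were alternatives. The comparison of changes between kinds of cells and a crossed replicate block were chosen after the data were seen. The members, markers, and gene lists were chosen with earlier results of these data known. Named genes are the 10 members; Ifnb1, Ifnar1, Ifnar2, Stat2, Irf9, Ifng, Cxcl9, and Ciita; up to 3 called genes per list, kind of cell, and comparison with the largest fold change; and the 10 genes most like the members' mean. Not every gene this rule names is reported here. Promoters are RefSeq's for GRCm38.p6. Motifs were searched on both strands.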

Additional observations from a re-analysis of the deposited data

Results flagged for a closer look

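The change against naive kidneys differed between kinds of cells, in a test of the difference itself (edgeR's quasi-likelihood fit over 12 sums with a kidney block, FDR of 0.05). That test was added once results were known. In rejecting kidneys the rise on the log2 scale was larger in tubular than in endothelial cells for 10 of the 10 interferon-stimulated genes, with a median difference in log2 fold change of 3.96 against 0.26 over all genes. In tolerized kidneys the same held for 9, with a median of 3.38 against 0.09. Against myeloid cells the rise was larger in tubular cells for 8 genes in rejecting and 7 in tolerized kidneys, with medians of 3.35 and 2.99 against -0.30 and -0.33 over all genes. Against lymphoid cells it was larger for 5 genes in rejecting and 5 in tolerized kidneys, with medians of 3.82 and 3.13 against -0.29 and -0.25. The comparisons share the tubular cells and the naive kidneys, and the naive lymphoid and myeloid sums are small. Tubular cells of grafts are of donor strain and leukocytes of recipient origin are not. In the comparisons with leukocytes, strain thus cannot be told apart from the kind of cell.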

How the results depend on the processing

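All 10 genes rose in tubular cells against naive kidneys, in rejecting and tolerized kidneys, under every alternative run: DESeq2, its size factors, no filter on low counts, the replicate block, doublets kept, stricter cell filters, a resolution of 0.8, proximal tubule-like cells alone, and each kidney left out in turn (10 to 10). Other counts were less stable. Leaving out 1 kidney gave 1 to 4 called genes in endothelial cells of rejecting and 1 to 2 of tolerized kidneys, and 2 to 4 and 0 to 2 in myeloid cells. Without the filter, 5 genes were called in myeloid cells of rejecting and 5 of tolerized kidneys. DESeq2 called 3 in the latter, 1 of them lower, where it called 1233 genes in all, 42.4% of them higher. For settings other than DESeq2, the share of all genes called against naive kidneys is not given here. No result is read from those counts of the 10 genes alone. At a resolution of 0.8, 2 genes were called in lymphoid cells of rejecting and 1 of tolerized kidneys. There the naive lymphoid sums grew from 122324 and 228969 to 216038 and 404449 UMIs. A T cell-named cluster led by cell cycle genes held 18 and 46 naive cells. A proximal tubule-like cluster led by such genes held the same counts in the main clustering, so these calls are not read as a lymphoid rise. Between tolerized and rejecting kidneys, DESeq2 called 4 and the fit without a filter 4 of the 10 genes in tubular cells, and the latter 1 in endothelial cells. Irf7 in this tubular comparison ran from -0.48 to 0.06 as each kidney was left out, with 0.01 without the first rejecting and 0.06 without the second tolerized kidney. Irf5 in lymphoid cells, lower in transplanted kidneys (log2 -1.99 and -2.0), was at 0.56 and 0.35 in T cell-like cells alone. The cause was not tested. Over all genes, the count called in tubular cells of tolerized against rejecting kidneys, 0, became 257 with DESeq2, 744 without a filter, and 162 without the second rejecting kidney. DESeq2 lowered the share of higher calls in myeloid cells from 54.6% to 40.8% in rejecting and from 59.8% to 42.4% in tolerized kidneys, and in lymphoid cells from 58.0% to 42.0% and from 64.0% to 41.6%.

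The mean share of tubular cells with a UMI of the 10 genes, after thinning to 1000 UMIs, became 2.98% in naive, 57.9% in rejecting, and 59.2% in tolerized kidneys without thinning, and 17.2% in rejecting and 9.87% in tolerized kidneys when cells were thinned to 500 UMIs. The study ran 2 experiments, but the labels do not say which kidney belongs to which. Deviations of same-numbered kidneys correlated at -0.14 to 0.32, the highest being tubular cells of rejecting and tolerized kidneys, and not every pair passed 0.1, so the numbers are not taken to pair them. The replicate block called 20 genes but 0 of the 10 between tolerized and rejecting tubular cells, and 2 of the 10 in place of 3 in myeloid cells of rejecting kidneys. It changed no other count of the 10 genes. A crossed block, added after the data were seen, called 25 genes and 0 of the 10 between tolerized and rejecting myeloid cells, where the plain fit called 1 gene.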

Other observations

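In 1 unnamed cluster of 213 barcodes, led by Npy, Fst, Cryab, and Aqp1, Ifit3 was high in naive kidneys without the rest of the 10 genes. Ifit3 was at 559 and 501 CPM there in naive, 762 and 653.5 CPM in rejecting, and 430.6 and 288 CPM in tolerized kidneys. The other 9 genes lay at 0 to 31.8 CPM in the naive kidneys, while Isg15 was at 335 CPM in the first rejecting kidney. The cluster held 19 to 61 cells per kidney and had too few markers to be named. It was chosen after its values were seen.

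A pair of macrophage/monocyte-like clusters of the transplanted kidneys differed in the sum of the 10 genes. Cluster 9, led by Lyz1, Chil3, and Ly6i, had 1830 and 1739 CPM in rejecting and 1233 and 1216 CPM in tolerized kidneys. Cluster 2, led by Ccl8, Apoe, and C1qa, had 946 and 1045 CPM in rejecting and 744 and 659 CPM in tolerized kidneys. The endothelium-like cells of naive kidneys fell into 2 clusters, at 1513 and 1322 CPM in the cluster shared with transplanted kidneys and 986 and 1008 CPM in a cluster of naive kidneys.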
